A study of Mus musculus with 6 samples.

Results

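Fatty acid synthesis and desaturation was followed through 10 genes: the transcription factor gene Srebf1, the acetyl-CoA producing enzymes Acly and Acss2, the chain-building enzymes Acaca and Fasn, the elongase Elovl6, and the desaturases Scd1, Scd2, Fads1 and Fads2. They were taken by symbol from the 16894 genes with values, and all 10 had a line. The list was chosen by the values of this same comparison, in which these genes were already known to be lower in senescent cells, so their levels and differences are given as a description. Their calls in the fit over all genes are counted beside the share of all genes called, and no p-value is given for them. Fibroadipogenic progenitors (FAPs), stromal cells of muscle able to form fibroblasts and adipocytes, came from male and female C57BL/6 mice of 3 to 6 months, sorted from quadriceps, gastrocnemius and tibialis anterior as cells carrying SCA-1 and lacking CD45, CD31 and α7-integrin, and bulk RNA-seq covered 3 cultures of control (non-senescent) FAPs and 3 of senescent FAPs. Senescent FAPs had received 20 μM of etoposide, which breaks DNA through topoisomerase, for 48 h, and then 5 more days of normal medium. No treatment is given for the control cultures, whose time in culture is not stated, and both groups were grown in medium with 20% fetal bovine serum and 10 ng/mL of bFGF at 3% oxygen. Whether the cultures of a group came from separate mice is not stated, so the spread and the p-values describe these cultures and may be technical.

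Cells build saturated fatty acids from acetyl-CoA. ATP citrate lyase (Acly) makes cytosolic acetyl-CoA from citrate and acetyl-CoA synthetase (Acss2) makes it from acetate, acetyl-CoA carboxylase (Acaca) turns it into malonyl-CoA, and fatty acid synthase (Fasn) joins these units into palmitate. Elovl6 lengthens palmitate to stearate, the Scd enzymes place the first double bond in these saturated chains, and Fads1 and Fads2 desaturate dietary polyunsaturated fatty acids. Srebf1 encodes SREBP-1, a membrane-bound transcription factor that is carried from the endoplasmic reticulum to the Golgi, cut there and released to activate these genes, while its relative SREBP-2 (Srebf2) acts mainly on cholesterol synthesis. Sterols and polyunsaturated fatty acids restrain this release.

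Every one of the 10 genes had lower values in all 3 senescent libraries than in any control library, as did 30.9% of the 14776 genes tested. Fewer cells of a type and less RNA per cell cannot be told apart in bulk samples. No overlap in either direction was seen for 57.4% of the genes tested. Values are in CPM (reads scaled to a common library size, with edgeR's factors between libraries), always listed for replicates 1, 2 and 3 in that order, and differences are limma estimates on log2(CPM + 0.5), senescent minus control. The 10 genes together reached 4177, 3082 and 3581 CPM in the control cultures and 1619.8, 1658 and 1585 CPM in the senescent cultures, so that the senescent mean was 44.9% of the control mean. The log2 difference ran from −1.70 for Elovl6 to −0.46 for Srebf1, with a median of −1.07, against a median of −0.03 over all genes tested. All 10 were also among the genes lower at a limma adjusted p under 0.05, which made up 24.3% of all genes tested, and 5 were lower by more than 1 on the log2 scale, as were 3.97% of all genes. Because the genes were chosen with this comparison known, nothing is read from these counts. Srebf1 was no longer among the genes called in 11 of 18 alternative settings and Acss2 in 7. Both lost the call without control replicate 1, control replicate 3 or any one of the senescent replicates, with log2 differences from −0.53 to −0.29 for Srebf1 and from −0.63 to −0.43 for Acss2.

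**Figure D1:**
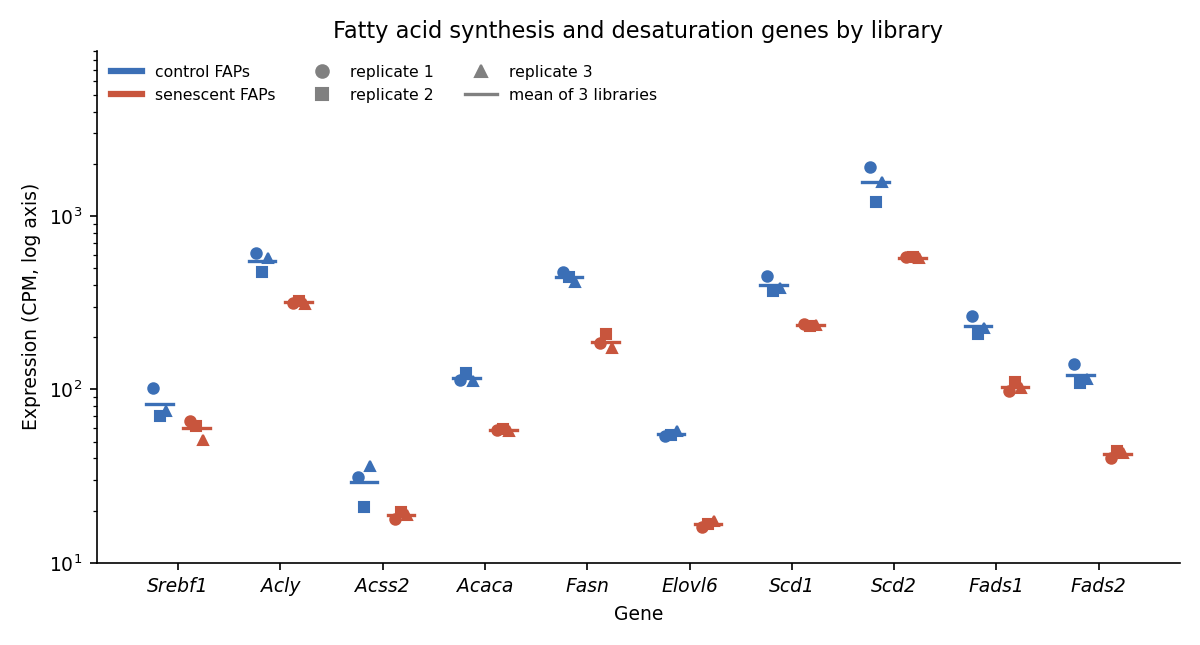
Expression of each gene in every library, in CPM on a log axis; blue symbols are control FAPs, red symbols senescent FAPs, the symbol shape gives the replicate number and each bar is the mean of 3 libraries. The red symbols lie under the blue ones for each gene, most narrowly for Acss2 (20.9 against 19.7 CPM between the nearest libraries) and Srebf1 (69.98 against 65.9 CPM).

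Srebf1, the regulator of the pathway, differed the least. It had 102.6, 69.98 and 75.4 CPM in the control cultures, against 65.9, 61.9 and 51.1 CPM in the senescent cultures. Control replicate 1 stood above the rest, and the nearest control and senescent libraries were close. Its mean was 82.6 ± 17.5 CPM in control FAPs (SD, n = 3), and the senescent mean was 59.6 ± 7.62 CPM (SD, n = 3). The log2 difference was −0.46 (standard error 0.16) and lay between −0.56 and −0.29 when each library was left out in turn. The gene lies on the minus strand of chromosome 11 from 60199089 to 60222581 (GENCODE M21, GRCm38), and the gene-level value sums its SREBP-1a and SREBP-1c transcripts. Its exons share 1.93% of their bases with Rai1 on the other strand, and whether counting used strand is not stated.

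Acly and Acss2, the sources of acetyl-CoA, were both lower. Acly had 610.5, 479.2 and 572.5 CPM in the control cultures, against 317.5, 326.0 and 312.7 CPM in the senescent cultures, so the groups were well apart and the senescent cultures close together. Its senescent mean was 57.5% of the control mean, a log2 difference of −0.79 (standard error 0.10). Acss2 had 31.2, 20.9 and 36.2 CPM in the control cultures, against 17.9, 19.7 and 18.9 CPM in the senescent cultures. Its log2 difference was −0.60 (standard error 0.19), but control replicate 2 came close to the senescent level, and in the cultures numbered 2 the difference was only −0.09, against −0.79 and −0.92 in those numbered 1 and 3. Without control replicate 2 the difference of Acss2 was −0.82. Acss2 also shares 3.89%, 3.30% and 1.94% of its exon bases with Gss, Acss2os and Ggt7 on the other strand.

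Acaca and Fasn build the chain. Acaca had 113.8, 124.9 and 112.2 CPM in the control cultures, against 58.7, 59.2 and 58.0 CPM in the senescent cultures, with little spread within either group. Its senescent mean was 50.1% of the control mean, a log2 difference of −0.99 (standard error 0.07). Fasn had 478.0, 445.3 and 415.6 CPM in the control cultures, against 185.2, 208.2 and 173.5 CPM in the senescent cultures. The senescent mean of Fasn was 42.3% of the control mean, and its log2 difference was −1.24 (standard error 0.09). The CPM of Fasn was 4.200, 3.56 and 3.70 times that of Acaca in the control cultures and 3.15, 3.52 and 2.99 times in the senescent cultures, so that the ratios of the groups came near each other without overlapping. Acaca, Fasn, Acly and Srebf1 all lie on chromosome 11 and the 4 desaturase genes on chromosome 19, with Acss2 on chromosome 2 and Elovl6 on chromosome 3.

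The bases just before the start are shown for Fasn, Acly and Srebf1, an enzyme of chain building, an enzyme of acetyl-CoA supply and their regulator, as windows that hold no annotated exon. That of Srebf1 lies in an intron of its longer transcripts. RefSeq (GRCm38.p6) gave a window of 250 bases before the start for 7 of the 10 genes, in 9 windows since Srebf1 has 3 starts, and none for Scd1, Scd2 and Fads1. They were searched on both strands for TCACNCCAC (a form of the SREBP site), CCAAT (bound by NF-Y), GGGCGG (the GC box bound by Sp1) and CACGTG (an E-box). Capitals mark every match, on either strand, and each sequence is written 5′ to 3′ on the strand of its gene.
Fasn, chr11:120824548-120824797, minus strand: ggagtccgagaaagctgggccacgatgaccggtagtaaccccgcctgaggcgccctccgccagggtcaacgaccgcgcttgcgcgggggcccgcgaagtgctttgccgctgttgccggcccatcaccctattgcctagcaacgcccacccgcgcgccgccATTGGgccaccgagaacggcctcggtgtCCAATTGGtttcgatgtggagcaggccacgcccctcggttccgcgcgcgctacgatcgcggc
Acly, chr11:100528001-100528250, minus strand: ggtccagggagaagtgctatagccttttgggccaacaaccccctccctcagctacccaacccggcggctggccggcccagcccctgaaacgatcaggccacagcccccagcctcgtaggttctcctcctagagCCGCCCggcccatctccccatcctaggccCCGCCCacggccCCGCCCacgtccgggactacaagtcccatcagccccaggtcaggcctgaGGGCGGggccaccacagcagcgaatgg
Srebf1, chr11:60210472-60210721, minus strand, before the start of the SREBP-1c transcript: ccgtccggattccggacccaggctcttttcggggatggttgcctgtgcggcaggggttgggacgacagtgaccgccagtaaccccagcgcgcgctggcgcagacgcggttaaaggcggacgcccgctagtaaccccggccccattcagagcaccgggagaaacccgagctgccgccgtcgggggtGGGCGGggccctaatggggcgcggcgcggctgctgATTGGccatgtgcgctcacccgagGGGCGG

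A gene was counted if any of its windows held a match, so shares over all windows compare with the window counts. The CCAAT letters stood in 3 of the 7 genes with a window (Fasn, Srebf1 and Acss2), in 4 of the 9 windows. Over all 32851 promoter windows, 33.9% held these letters. In Fasn they began 90, 62 and 59 bases before the start, the last 2 overlapping on opposite strands. The GC box stood in 4 of the 7 genes (Acly, Srebf1, Acss2 and Fads2), with 4 copies each in Acly and Acss2. By window it stood in 5 of the 9, against 32.7% of all windows. Neither TCACNCCAC, held by 1.05% of all windows, nor CACGTG, held by 6.02%, was found in any of the 9 windows, which says only that these letters are not in these 250 bases. Not all of the 9 windows lie outside the annotated gene. That of Acaca belongs to a start inside the gene, which runs from 84129672 to 84401651 on the plus strand of chromosome 11. The windows of Srebf1 that begin at 60210472 and 60220628 also lie inside their gene, which ends at 60222581. Those of Acss2, Elovl6 and Fads2 reach past the annotated gene start, so part of each lies within the gene.

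Elovl6 differed the most of the 10 genes, and its control cultures were the closest together relative to their mean. It had 53.6, 54.9 and 57.8 CPM in the control cultures, against 16.1, 16.6 and 17.3 CPM in the senescent cultures. The lowest control library was thus far above the highest senescent library. The control mean was 3.32 times the senescent mean, a log2 difference of −1.70 (standard error 0.08), and the 3 differences between same-numbered cultures were −1.70, −1.69 and −1.71. The reads behind Elovl6 numbered 2401 to 3220 in control and 771 to 995 in senescent libraries.

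**Figure D2:**
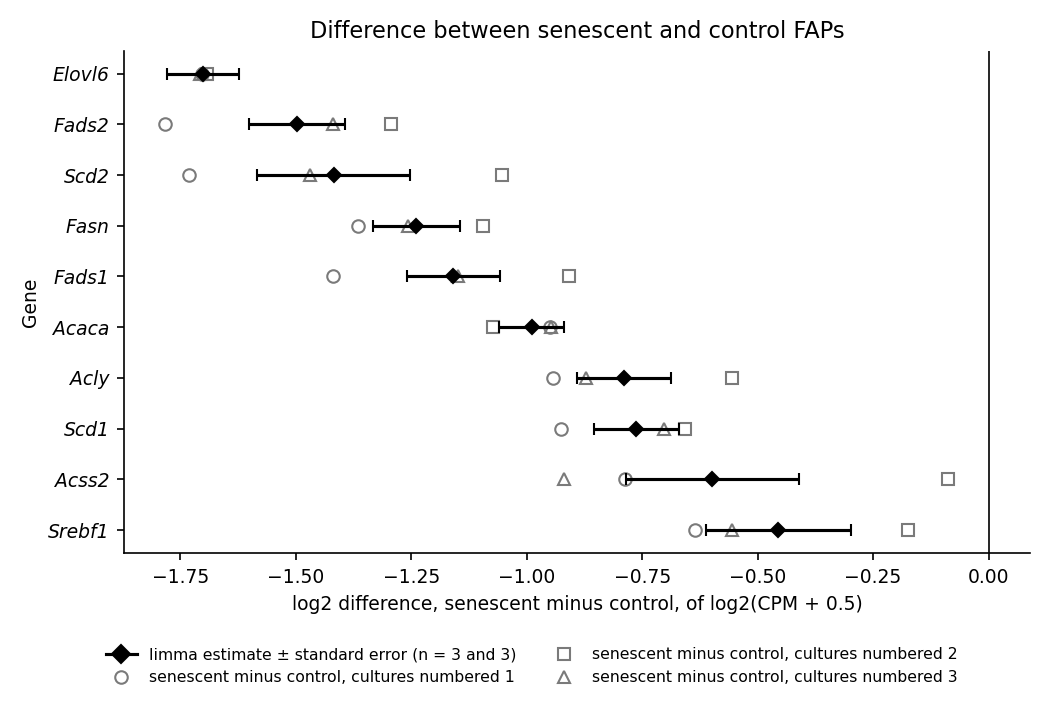
Difference between senescent and control FAPs for each gene, on the log2 scale of CPM + 0.5; black diamonds with bars are limma estimates with their standard error, open symbols the differences between cultures of the same number. The cultures numbered 2 gave the smallest difference for 9 of the genes, all but Acaca, whereas the 3 differences of Elovl6 nearly coincided at −1.70. The share of all genes with their smallest difference in the cultures numbered 2 was not computed.

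The stearoyl-CoA desaturases Scd1 and Scd2 make monounsaturated fatty acids such as oleate. Scd2 was the most abundant of the 10 transcripts, with 1930.1, 1201 and 1583 CPM in the control cultures, against 581.5, 578.8 and 571.4 CPM in the senescent cultures. The control cultures were spread widely and the senescent cultures were nearly equal. Its senescent mean was 36.7% of the control mean, a log2 difference of −1.42 (standard error 0.17) that reached −1.60 without control replicate 2. Scd1 had 452.5, 367.8 and 386.1 CPM in the control cultures, against 237.9, 232.9 and 237.0 CPM in the senescent cultures, a log2 difference of −0.76 (standard error 0.09). Scd2 thus differed by more than its paralog, and the ratio of Scd2 to Scd1 in CPM, which no scaling of a library can change, was 4.27, 3.27 and 4.10 in the control cultures and 2.44, 2.49 and 2.41 in the senescent cultures. The Scd genes are close in sequence, so counting could have moved reads between them.

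Fads1 and Fads2, which act in turn to make arachidonic acid and related long polyunsaturated fatty acids, were both lower. Fads1 had 264.7, 208.9 and 227.4 CPM in the control cultures, against 98.6, 111.0 and 102.3 CPM in the senescent cultures, a log2 difference of −1.16 (standard error 0.10). Fads2 had 140.4, 108.8 and 115.6 CPM in the control cultures, against 40.5, 44.1 and 42.9 CPM in the senescent cultures, a log2 difference of −1.50 (standard error 0.10). For both genes control replicate 1 was the highest library and no value of one group reached the other group. The ratio of Fads1 to Fads2 moved opposite to that of Scd2 to Scd1, from 1.92 ± 0.0412 (SD, n = 3) in control to 2.44 ± 0.0675 (SD, n = 3) in senescent FAPs, with no overlap.

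**Figure D3:**
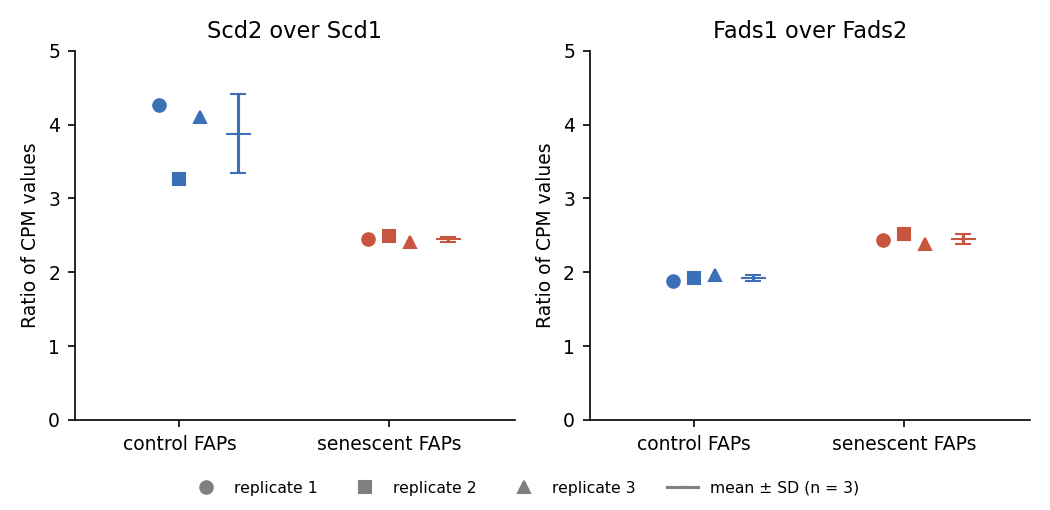
Ratio of CPM values within each library, Scd2 over Scd1 at left and Fads1 over Fads2 at right; symbols are single libraries and bars the mean ± SD of 3. The first ratio was lower in senescent FAPs (mean 2.45 against 3.88) and the second higher (2.44 against 1.92).

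The desaturase genes sit in 2 clusters on chromosome 19 with paralogs that were not among the 10. Scd3, Scd2, Scd4 and Scd1 lie within 204.6 kb (44203269 to 44407879), and Fads3, Fads2 and Fads1 within 155.3 kb (10041569 to 10196877, GENCODE M21). Scd3 fell from 2.59 ± 0.935 to 0.881 ± 0.339 CPM (SD, n = 3 each), a log2 fold change of −1.14 (limma adjusted p = 0.0116). Scd4 had 0.878 ± 0.403 CPM in control and 0.570 ± 0.0907 CPM in senescent FAPs (SD, n = 3 each) and did not pass the test (limma adjusted p = 0.304), although it did without control replicate 2 (limma adjusted p = 0.0373). Fads3, whose product acts on sphingolipid bases, fell by 0.41 on the log2 scale (limma adjusted p = 0.0270), a call lost in 6 of 18 alternative settings, among them those without control replicate 1, control replicate 3 or senescent replicate 3 (limma adjusted p from 0.0539 to 0.0808).

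Per kilobase of exon, the order of levels was nearly the same in both groups. In control FAPs it ran from Scd2 (287.6 CPM per kb), Acly (104.96), Scd1 (82.2), Fads1 (48.6), Fasn (40.8) and Fads2 (36.9) to Srebf1 (14.7), Elovl6 (8.62), Acaca (6.85) and Acss2 (2.90). Acly and Scd1 overlapped in that order, as did Fads1 and Fasn, and Fasn and Fads2, while the other neighbours did not. In senescent FAPs the levels per kilobase fell to 105.6 for Scd2 and 60.4 for Acly, no neighbours overlapped, and Elovl6 (2.60) came below Acaca (3.43). The exon lengths join all annotated transcripts of a gene, 17.07 kb for Acaca, and understate genes whose longest exons are rarely used.

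The senescent cultures differed from each other less than the control cultures did. The coefficient of variation of the 10 genes had a median of 12.2% in control FAPs and 4.03% in senescent FAPs, and it was lower in senescent FAPs for 9 of the 10, all but Fasn. Over the 6434 genes whose mean CPM lay within the range of the 10, the medians were 8.09% and 6.65%, and the coefficient was lower in senescent FAPs for 61.7%. Control replicate 1 was the highest control library for 7 of the 10 genes and control replicate 2 the lowest for 7. Over all genes tested, control replicate 1 was the highest control library for 35.9%. The share of all genes with control replicate 2 as the lowest was not computed.

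The whole table had 41412179 to 59912520 reads on genes per library, and the lowest read count of any of the 10 genes in a library was 771. Division by library totals alone, without edgeR's scaling factors, moved the median log2 difference over all genes from −0.03 to 0.17 and changed the calls at an adjusted p under 0.05 from 3218 higher and 3592 lower to 4992 higher and 1929 lower. The median of the 10 genes was then −0.86. All 12 proliferation markers fell (Mki67 from 157.7 ± 78.6 to 12.7 ± 5.49 CPM, SD, n = 3 each), with a sum of 650.7, 1181 and 553.9 CPM in control replicates 1, 2 and 3 and 97.0 to 127.6 CPM in senescent libraries. Control replicate 2, with the highest proliferation sum, had the lowest sum of the 10 synthesis and desaturation genes, and the part of proliferation in the result was not tested.

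The FAP marker Pdgfra had 126.3 to 237.8 CPM in control and 182.4 to 253.7 CPM in senescent libraries, and the 10 FAP markers summed to 18411 to 37466 CPM in control and 12081 to 17016 CPM in senescent libraries, with 4 higher, 1 lower (Col1a1) and 5 not past the test. The adipocyte markers with values were Fabp4 (higher in senescent FAPs) and Pparg (lower, a call held in 10 of 18 alternative settings). They summed to 8.84 to 10.7 CPM in control and 9.65 to 10.7 CPM in senescent libraries. The other 6 of that list, Adipoq and Plin1 among them, had no values. The 5 leukocyte markers with values summed to 10.9 to 13.8 CPM in control and 26.4 to 32.5 CPM in senescent libraries. Of these markers 4 were higher and 0 lower, and Ptprc had no values. The 5 endothelial markers summed to 20.4 to 41.3 and 24.2 to 31.7 CPM, with Pecam1 at no more than 1.87 CPM. Of the 4 tested, 1 was higher (Pecam1) and 1 lower (Kdr). The 3 myogenic markers summed to 35.1 to 54.0 and 35.3 to 38.2 CPM, with 1 higher (Itga7, the gene of α7-integrin) and 1 lower (Acta1). Pax7 had no values. The part of these cells in the result was not tested.

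Genes that regulate SREBP or fatty acid synthesis did not share one direction. Of 12 such genes tested, Srebf2 among them, 4 fell, 2 rose and 6 did not pass the test (median log2 fold change −0.04). Over all genes, 24.3% fell and 21.8% rose. Srebf2 fell from 234.1 ± 35.2 to 92.9 ± 8.31 CPM (SD, n = 3 each), a log2 fold change of −1.32 (standard error 0.12, limma adjusted p = 3.07e-04). Insig1, which holds the SREBP complex in the endoplasmic reticulum and is itself induced by SREBP, fell by 1.38 (limma adjusted p = 3.08e-04). Scap, the escort of SREBP to the Golgi, rose by 0.44 (limma adjusted p = 0.00335). Nr1h3, which encodes the oxysterol receptor LXRα, rose from 1.03 ± 0.165 to 3.90 ± 1.11 CPM (SD, n = 3 each, limma adjusted p = 0.00122). The SREBP-cutting proteases differed little, with −0.28 for Mbtps1 (limma adjusted p = 0.0125, a call lost with 3 settings, library totals alone and quantile normalization among them) and −0.08 for Mbtps2 (limma adjusted p = 0.523). Insig2 had a log2 difference of 0.50 that did not pass the test (limma adjusted p = 0.0600) but was called higher in 8 of 18 alternative settings, DESeq2 and edgeR's quasi-likelihood test, the replicate number as a block (limma adjusted p = 0.00302) and leaving out senescent replicate 1 (limma adjusted p = 0.00963) among them.

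Cholesterol synthesis genes, the main SREBP-2 targets, fell almost throughout: of 20 tested, 19 fell and 0 rose, with a median log2 fold change of −1.28. Over all genes tested, 24.3% fell and 21.8% rose. Lanosterol synthase (Lss) fell by 1.70 (limma adjusted p = 6.90e-05), Cyp51 by 1.69 (limma adjusted p = 1.01e-04) and Fdps by 1.51 (limma adjusted p = 6.77e-05). By distance between centred log2 profiles over the 6 libraries, the genes most like the median profile of the 10 were Yif1b (distance 0.12), Sik1 (0.14), the mevalonate kinase gene Mvk (0.17), Gm5643 (0.18) and Gm26651 (0.19), where the 10 genes themselves lay at 0.17 to 0.83 and the median over all genes was 1.34. Gm5643 had under 1 CPM in every library, where the pseudocount holds differences down.

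**Figure D4:**
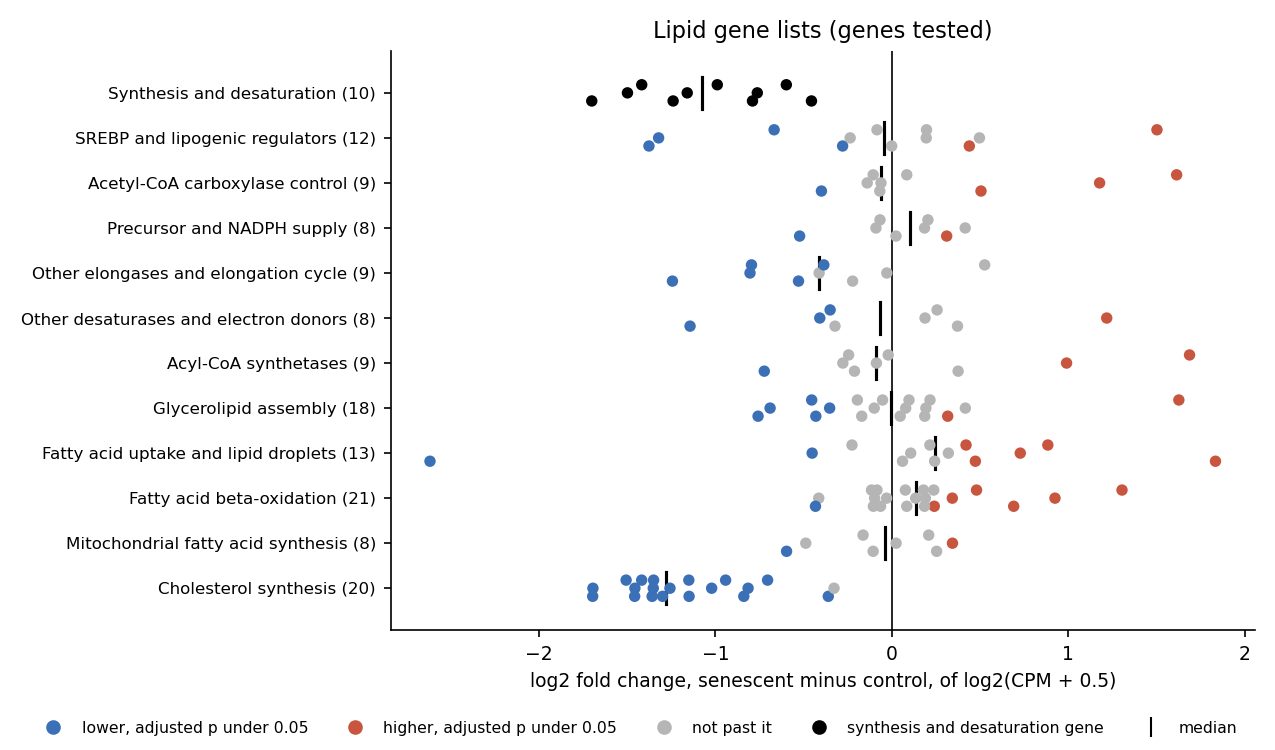
Log2 fold change of each gene tested in the lipid gene lists, senescent minus control on the scale of log2(CPM + 0.5); blue and red points passed a limma adjusted p of 0.05, grey points did not, black points are the 10 synthesis and desaturation genes, and each vertical bar is a list's median. The 10 genes (median −1.07) and the cholesterol list (median −1.28) lie to the left, while the medians of the other lists stand between −0.41 and 0.24. The 10 genes and all lists were chosen with earlier results of these data known, so these positions are a description only.

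Counts for the other enzymes of elongation and desaturation stand beside the shares over all genes, of which 24.3% fell and 21.8% rose. Of 9 elongation genes tested, 5 fell, 0 rose and 4 did not pass (median −0.41). With the replicate number as a block 6 fell and 1 rose. Elovl1, which lengthens saturated very long chains, fell from 172.5 ± 5.00 to 98.6 ± 4.85 CPM (SD, n = 3 each), a log2 fold change of −0.80 (standard error 0.07, limma adjusted p = 2.59e-04). Elovl5, the elongase between the Fads2 and Fads1 steps, fell by 0.80 (limma adjusted p = 4.02e-04), and the dehydratase gene Hacd1 (listed as Ptpla) by 1.24 (limma adjusted p = 4.32e-04). Among 8 other desaturases and their electron donors, 3 fell (1 to 3 over the settings) and 1 rose (2 with the replicate number as a block). The riser was Cyb5a, the cytochrome that passes electrons to the desaturases, at 54.6 ± 7.25 CPM in control and 127.2 ± 12.2 CPM in senescent FAPs (SD, n = 3 each), a log2 fold change of 1.22 (limma adjusted p = 3.58e-04).

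Control of acetyl-CoA carboxylase held 3 risers among 9 genes tested and 1 fallen gene, Prkab2, which was lost with the replicate number as a block. Over all genes tested, 21.8% rose and 24.3% fell. Acacb, the mitochondrial relative of Acaca whose malonyl-CoA restrains fatty acid oxidation, rose from 1.00 ± 0.315 to 2.93 ± 0.882 CPM (SD, n = 3 each), by 1.18 on the log2 scale (limma adjusted p = 0.00589). The kinase subunits of AMPK, which phosphorylates and inhibits the carboxylases, rose as well, Prkaa1 by 0.51 (limma adjusted p = 0.00253) and Prkaa2 by 1.61 from 0.840 CPM (limma adjusted p = 0.00168). Genes that supply citrate and NADPH were mostly not past the test: of 8, 1 fell (citrate synthase, Cs, by 0.52, limma adjusted p = 0.00322), 1 rose (Pgd of the pentose phosphate pathway, by 0.31, limma adjusted p = 0.0239) and 6 did not pass. With the replicate number as a block 2 rose, and the call of Pgd was lost without control replicate 3 or any one of the senescent libraries (limma adjusted p from 0.0511 to 0.0802).

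Among genes that use the new fatty acids, the counts lay near or under the shares over all genes, of which 24.3% fell and 21.8% rose. Of 9 acyl-CoA synthetases tested, 1 fell (Acsl3, by 0.72, limma adjusted p = 6.24e-04) and 2 rose (Acsl6 by 1.69, limma adjusted p = 0.00317, and Acss3 by 0.99, limma adjusted p = 0.0136, both with group means under 5 CPM). Of 18 genes of glycerolipid assembly, 5 fell, 2 rose (1 with the replicate number as a block) and 11 did not pass (median log2 fold change −0.00247). Lpin1, a phosphatidate phosphatase, rose from 15.5 ± 4.82 to 47.2 ± 3.02 CPM (SD, n = 3 each), by 1.63 (limma adjusted p = 0.00115). Pcyt2, of phosphatidylethanolamine synthesis, fell by 0.76 (limma adjusted p = 0.00214), and Lpcat3, which places polyunsaturated chains into phospholipids, by 0.69 (limma adjusted p = 0.00510).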

How the data were processed

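Bulk RNA-seq libraries of control and senescent FAPs (3 each) were made with a stranded mRNA kit. The authors deposited 1 table in which the signal per gene and library is CPM of the effective library size, computed with edgeR (3.10, R 3.6.0, build mm10, per the labels), so the values carry edgeR's scaling factors. The aligner, counter, annotation and filter on low counts are not given in the sources used here. Divided by what 1 read is worth in its library, 100% of values came out whole (within 0.01), and these reads were used in the count tests. 1 line without a gene name, 0.00409% to 0.00699% of reads, was left out. 0 columns belonged to no library.

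A gene was tested if 3 or more libraries had 0.5 CPM or more. The test was limma (3.58.1, R 4.3.3, variance trend, two-sided, Benjamini-Hochberg over 14776 genes) on log2(CPM + 0.5). It was checked on simulated unpaired libraries with 200 changed genes, far fewer than were called here. That check therefore does not cover the scaling between the groups or a pairing of cultures. Because the values are normalized, edgeR's quasi-likelihood test (4.0.16) and DESeq2 (1.42.0) on recovered reads were alternatives, beside pseudocounts of 0.1 and 1, no filter or 2 CPM, other scalings, no trend, a replicate block and leaving out each library; leaving out both cultures numbered 1 was added after seeing the values. Same-numbered cultures deviated together (correlations 0.54, 0.31 and 0.21 over 14776 genes), but control replicate 2 and senescent replicate 3 also gave 0.15. The labels do not say what a number marks. The main fit held no replicate block, so its standard errors and adjusted p-values ignore any pairing, which only the block setting took up. The 10 genes and all lists were chosen with earlier results of these data known, and 1 gene of a list is not reported here. Named genes were the 10, direct paralogs and SREBP regulators, in each list the 3 called genes with the largest change, and the 5 nearest profiles. With 3 libraries against 3 an exact permutation test of 1 gene cannot go below 0.1.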

Additional observations from a re-analysis of the deposited data

How the results depend on the processing

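Of 180 log2 differences of the 10 genes over 18 alternative settings, 13 moved by more than the spread between replicates, and nothing is read from their signs, which the choice of genes fixed. Division by library totals alone gave 1929 genes lower and 4992 higher, a median of −0.86 over the 10 genes, and 45 genes called higher over the lists (23 otherwise). Leaving out 1 library at a time gave 2130 (without senescent replicate 2) to 3405 genes higher, against 3218. With the replicate number as a block, 3947 genes were lower and 3576 higher, and of the genes named the block changed the calls of Insig2, Cbr4 and Prkab2 and no others. Small list counts depended on the setting: 76 of 396 moved by over 1.5 times. With library totals alone, counts of higher genes went from 6 to 13 for beta-oxidation, from 2 to 7 for glycerolipid assembly and from 1 to 4 for precursor supply. In that setting they also went from 2 to 4 for regulators of SREBP or fatty acid synthesis and from 1 to 3 for other desaturases. Counts in the 2 directions ranged from 0 to 2 and 0 to 3 for mitochondrial synthesis, and the single lower gene of carboxylase control (Prkab2) was lost in 9 settings. Counts of lower genes ranged from 1 to 3 for other desaturases and from 3 to 5 for glycerolipid assembly. Higher genes of uptake and droplets ranged from 3 to 6. The cause was not tested. The CCAAT count of 3 genes held in a window of 100 bases, where the GC box stood in 3. Ranking by CPM without division by exon length changed the rank of 6 genes in control and 7 in senescent FAPs. Genes under about 5 CPM, such as Scd4, are limited by depth.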

Other observations

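Of 21 beta-oxidation genes tested, 6 rose, 1 fell and 14 did not pass a limma adjusted p of 0.05 (median log2 fold change 0.14), where 21.8% of all genes rose and 24.3% fell. The count of risers ran from 4 without the variance trend to 13 with library totals alone. Cpt1a, which admits long chains to mitochondria and is the step that malonyl-CoA inhibits, rose from 34.9 ± 4.34 to 86.6 ± 4.17 CPM (SD, n = 3 each), by 1.30 on the log2 scale (limma adjusted p = 1.93e-04). Cpt1c rose by 0.92 (limma adjusted p = 4.83e-04) and the very long chain dehydrogenase Acadvl by 0.69 (limma adjusted p = 4.59e-04), and these 3 calls held in all 18 alternative settings.

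Of 13 genes of fatty acid uptake and lipid droplets, 5 rose, 2 fell and 6 did not pass (median 0.24), where 21.8% of all genes rose and 24.3% fell. The fatty acid carrier Fabp5 fell from 119.3 ± 11.8 to 19.1 ± 2.24 CPM (SD, n = 3 each), a log2 fold change of −2.62 (limma adjusted p = 4.44e-05). The droplet coat genes Plin2, with 138.8 ± 40.4 CPM in control and 250.8 ± 24.9 CPM in senescent FAPs (SD, n = 3 each), and Plin4 rose by 0.88 (limma adjusted p = 0.00707) and 1.83 (limma adjusted p = 3.32e-04). Mitochondrial fatty acid synthesis, a separate pathway that serves lipoic acid, had 1 gene lower (Lipt2, −0.60, limma adjusted p = 0.0329), 1 higher (Cbr4, 0.34, limma adjusted p = 0.0440) and 6 not past the test. The call of Lipt2 was lost in 7 of 18 settings, among them those without any one library but senescent replicate 1 (limma adjusted p from 0.0511 to 0.113). That of Cbr4 was lost in 6, among them those without control replicate 1 or 3 or senescent replicate 2 or 3 (limma adjusted p from 0.102 to 0.138), and with the replicate number as a block 2 genes were lower and 0 higher.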
